A study of Mus musculus with 20 samples.

Results

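Guanylin (Guca2a), uroguanylin (Guca2b), their receptor guanylate cyclase C (Gucy2c) and 6 transporters and channels of the intestinal epithelium (Cftr, Slc9a3, Slc26a3, Slc26a6, Slc12a2 and Atp1b1) were followed across the arrays of mouse intestinal tissue. These 9 genes were taken by name from the 25118 genes named on the array, and every probe carrying one of the names was kept, 16 probes in all. Each array held RNA from 1 mouse of the C57BL6/j strain, labelled as intestinal tissue. The 4 groups were Cre control (n = 6), BRAFV600E (n = 6), MEKi (n = 4) and Vehicle (n = 4).

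Cre control mice carried VillinCreER/0 alone. BRAFV600E mice carried VillinCreER/0/BrafV600E-LSL/+, in which tamoxifen releases expression of the mutant Braf allele in cells where the Villin promoter drives Cre, that is, in the epithelium of the gut. By the study's methods both of these groups were 8 to 12 weeks old and of males and females in equal number, and received 3 daily doses of 2 mg tamoxifen, with tissue taken 3 days after the last. MEKi mice were given PD184352, an inhibitor of MEK, the kinase that acts below BRAF, and Vehicle mice the solvent. By the study's methods both received 2 injections of 100 µl tamoxifen at 10 mg/ml and then 3 of inhibitor or solvent. The labels give no genotype for these 8 mice beyond the group name, and by the study's legends they carried the mutant Braf allele. The study's methods give no age for the MEKi and Vehicle mice by name, but give 8 to 12 weeks for induced mutant mice in general. They describe the small intestine, with pieces of about 0.5 cm frozen for RNA. The segment of intestine that was sampled is not given in the sources used here.

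Guanylin and uroguanylin are small peptides that the gut epithelium releases into the lumen. They bind guanylate cyclase C on the apical membrane, which raises cGMP inside the cell. Protein kinase G then opens CFTR, the apical chloride and bicarbonate channel, and restrains NHE3 (Slc9a3), the apical sodium-proton exchanger, so that salt and water stay in the lumen. Bacterial heat-stable enterotoxin drives the same receptor and causes secretory diarrhoea. Slc26a3 (DRA) and Slc26a6 (PAT-1) exchange luminal chloride for bicarbonate, NKCC1 (Slc12a2) loads chloride across the basolateral membrane, and the sodium pump, of which Atp1b1 encodes a beta subunit, sustains the gradients that all of them use.

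The guanylin genes lie beside each other on chromosome 4, with 17.1 kb between their gene models, and were the pair of members that varied most together over the 20 arrays. The 250 bases before each start of transcription are from RefSeq on GRCm38.p6. They are shown because the ratio of this neighbouring pair differed between BRAFV600E and Cre control arrays. That difference did not pass in every setting, as given below. Guca2a lies on the plus strand (chr4:119637482-119637731) and Guca2b on the minus strand (chr4:119658946-119659195), both written 5′ to 3′, and capitals mark the motif matches described after them.
Guca2a: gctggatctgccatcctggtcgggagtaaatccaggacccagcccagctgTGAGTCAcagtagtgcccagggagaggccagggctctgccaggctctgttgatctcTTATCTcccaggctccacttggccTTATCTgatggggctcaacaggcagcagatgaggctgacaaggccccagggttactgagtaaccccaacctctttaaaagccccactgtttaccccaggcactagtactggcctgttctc
Guca2b: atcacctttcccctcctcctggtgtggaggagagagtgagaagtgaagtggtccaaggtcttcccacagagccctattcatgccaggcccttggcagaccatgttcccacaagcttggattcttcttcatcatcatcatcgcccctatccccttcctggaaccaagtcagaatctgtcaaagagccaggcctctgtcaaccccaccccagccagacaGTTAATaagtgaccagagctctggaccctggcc

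Motifs of 5 kinds of factor were searched on both strands. The letters for AP-1 were TGANTCA and those for the GATA factors AGATAA. The HNF1 letters were GTTAAT, the CDX letters TTTATG and the TCF letters ATCAAAG. The Guca2a window held 1 AP-1 match, read TGAGTCA and starting 200 bases before the start, and 2 GATA matches, on the opposite strand as TTATCT, at 144 and 120 bases. The Guca2b window held none of these and had 1 HNF1 match, GTTAAT, 33 bases before the start. No match overlapped another. Of 32851 RefSeq promoter windows of this length, 6.75% held the AP-1 letters, 9.99% the GATA letters and 0.919% both, while 6.43% held the HNF1 letters. Among the 7 members with an entry, Slc26a3 held 2 HNF1 matches, at 94 and 84 bases, and Cftr, Slc9a3, Slc26a6 and Atp1b1 held none of the 5 motifs. A match is a run of letters and was not tested as a binding site.

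Levels are given as log2 of the processed signal relative to the 75th percentile of the same array, so a level of 0 equals that percentile and a step of 1 is a doubling. A level describes 1 probe, and levels of different genes are not compared. Between 60.8% and 76.8% of probes were well above background on an array, and the brightest probe of all 9 genes was so on all 20 arrays. The tissue label fitted the markers of the small intestine: all 10 enterocyte markers, 7 goblet markers and 6 Paneth markers were well above background on every array, whereas the colon list stayed between -5.37 and -3.78, with 3 or 4 of its 6 genes above background, and Hoxa13 was above background on 0 of 20 arrays. In tissue of mixed cells, fewer cells of a type and less RNA per cell cannot be told apart.

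Both comparisons hold an array that stood apart from the others. BRAFV600E array 2 and Vehicle array 2 had Cybrd1, the duodenal ferric reductase, at 6.48 and 6.29, where the other 18 arrays lay between -2.99 and -0.31. Slc40a1, the iron exporter ferroportin, was at 5.01 and 5.50 against -2.39 to 1.00 elsewhere, and the ileal gene Cubn was at -4.95 and -3.43 against -1.59 to 4.48. Cubn was also lower on the other BRAFV600E arrays (-1.59 to 0.63) than in Cre control (4.10 to 4.48). Of further proximal genes, Onecut2 stood above the other 18 arrays and Hephl1 lay within their range. Gata4 was at 2.93, within their 2.07 to 3.10, and at 3.51, above it. Lct, also on the proximal list, went the other way, at -2.23 and 3.70 against 5.49 to 8.30 on those arrays. Of further ileal genes, Osr2 stood below those arrays, whereas Fabp6 (-3.30 and -2.01) and Slc10a2 (-4.57 and -3.73) lay within their range. Vehicle array 2 also carried pancreatic RNA. The mean of 7 exocrine pancreas genes was 6.97 there and between -3.99 and -2.77 on the remaining arrays, BRAFV600E array 2 included. Values of the members without these arrays are given beside those with them where they moved, and their part in the results was otherwise not tested.

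The first comparison asked what the mutant Braf allele did to these genes within days of induction. None of the 9 genes passed the test (limma, Benjamini-Hochberg over 18903 genes, adjusted p under 0.05), either higher or lower, where 6.2% of all genes were called higher and 6.31% lower in BRAFV600E tissue. The arrays of the groups overlapped for all 9, against 7.39% of genes whose arrays did not overlap. At an unadjusted p under 0.05 only Slc9a3 passed (5712 of all genes did). The median log2 difference of the 9 was 0.13, beside -0.02 for all genes. These values use the brightest probe of each gene. When every probe was tested on its own, 3 of 15 member probes were called in this comparison, where 9.4% of all probes were. The called probes were of Slc26a6 and Slc9a3. The second comparison asked what blocking MEK did. Again 0 of 9 passed among 19216 genes, of which 1.09% were called higher and 0.89% lower in MEKi tissue, and Slc9a3 alone had an unadjusted p under 0.05, as 3151 genes did. Slc9a3 was also the only member whose MEKi and Vehicle arrays did not overlap, as in 12.2% of all genes. The median difference of the 9 was 0.05, beside 0.04 for all genes. In simulated data with a true log2 difference of 1, the test called 60 of 100 genes in the first comparison. It called 43 of 100 in the second. A gene that was not called may thus have changed.

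**Figure D1:**
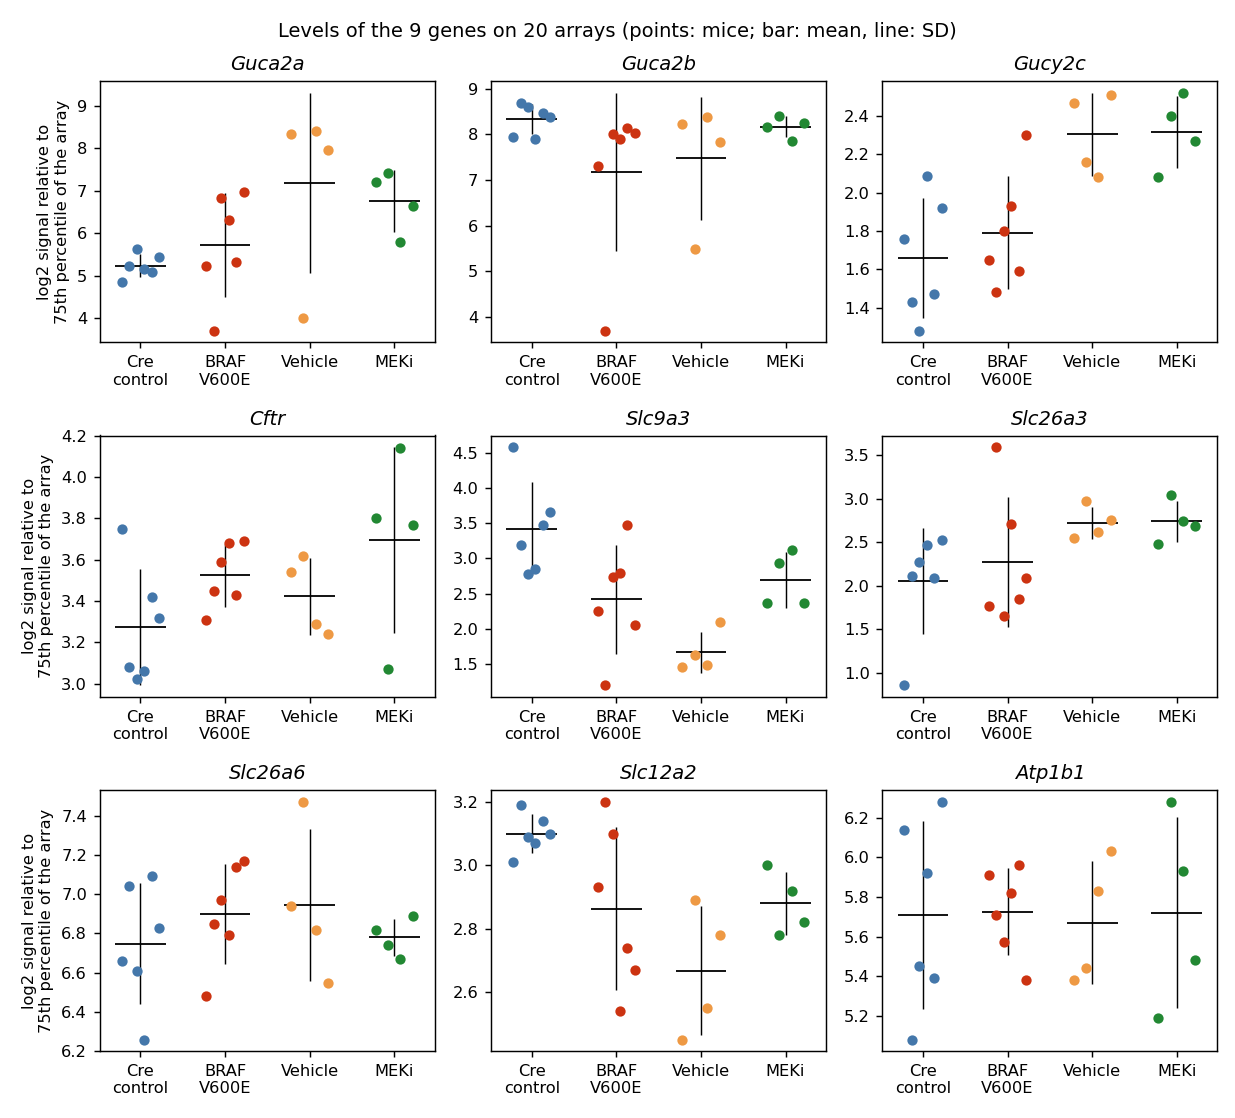
Levels of the 9 genes, each by its brightest probe, as log2 signal relative to the array's 75th percentile (vertical axis) in the Cre control, BRAFV600E, Vehicle and MEKi groups. Points are mice, bars are group means and lines are SD. Guca2a and Guca2b each have 1 BRAFV600E point (3.71 and 3.70) and 1 Vehicle point (4.01 and 5.49) below the rest of its group, and the Slc9a3 points of MEKi (2.36 to 3.12) lie above those of Vehicle (1.46 to 2.09).

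Of the ligands, guanylin (Guca2a) had a median of 5.20 in the Cre control arrays (4.86 to 5.64) and of 5.82 in the BRAFV600E arrays (3.71 to 6.96). The mutant arrays thus spread to both sides of the controls, 3 of them (6.82, 6.31 and 6.96) above every control and 1 (array 2, at 3.71) below. The difference of the means was 0.49 (SE 0.46, 95% interval -0.52 to 1.50, limma adjusted p = 0.517). Without BRAFV600E array 2 it was 0.89 (SE 0.32, adjusted p = 0.103), with levels of 5.23 to 6.96 in the other 5 mutants. The Cre control arrays and BRAFV600E arrays 1 and 2 were on 1 slide and BRAFV600E arrays 3 to 6 on another. Within the slide that holds both groups the difference had the opposite sign, -0.77 (adjusted p = 0.282), and it was -0.77 with slide as a block (adjusted p = 0.300). Only 2 mutant arrays lie on that slide, array 1 at 5.23 and array 2 at 3.71, so slide and the choice of mutant arrays cannot be told apart here.

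In the inhibitor experiment guanylin stood at 7.20, 7.42, 5.79 and 6.65 on the MEKi arrays and at 8.34, 4.01, 8.40 and 7.97 on the Vehicle arrays. All of the Vehicle arrays other than array 2 were above every MEKi array. With array 2 included the difference was -0.42 (SE 0.96, interval -2.64 to 1.79, limma adjusted p = 0.887). Without it the groups no longer overlapped and the difference was -1.48 (SE 0.38, adjusted p = 0.106), short of the threshold. Vehicle array 2 decided this value. The mean level of a list of 6 genes of the distal small intestine moved with guanylin here. It was 2.19, 2.50, 1.40 and 1.60 on the MEKi arrays and 2.91, -1.22, 3.13 and 2.37 on the Vehicle arrays. The list's ileal gene Fabp6 was between -1.72 and 0.45 on the MEKi arrays and at 3.76, -2.01, 2.91 and 1.35 on the Vehicle arrays. Slc10a2 was likewise lower on every MEKi array than on the Vehicle arrays other than array 2. The rest of the list did not share this. Cubn went mostly the other way, at 2.61 to 4.48 on the MEKi arrays and 2.25 to 2.65 on those Vehicle arrays. Osr2 (2.74 to 3.51 and 2.65 to 2.93), Slc51a and Slc51b overlapped between these arrays. In the first comparison the same list was between 0.99 and 1.63 in Cre control and between -0.66 and 1.05 in BRAFV600E, apart from array 2 at -2.55. The part of the position along the gut in the guanylin values was not tested.

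Uroguanylin (Guca2b) behaved more evenly, except on the same arrays. The Cre control arrays had a median of 8.43 (7.91 to 8.68) and the BRAFV600E arrays one of 7.95 (3.70 to 8.14). The other mutants lay between 7.30 and 8.14, apart from array 2 at 3.70. The difference was -1.15 (SE 0.65, interval -2.55 to 0.25, limma adjusted p = 0.250) and -0.46 without array 2 (SE 0.20, adjusted p = 0.163). With slide as a block uroguanylin was called lower, at -2.83 (adjusted p = 0.0226), and within the shared slide the difference was again -2.83 (adjusted p = 0.0849), a contrast that rests on mutant arrays 1 (7.30) and 2 (3.70).

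Under MEK inhibition uroguanylin read 8.17, 8.40, 7.86 and 8.25, and with vehicle 8.22, 5.49, 8.38 and 7.84. The groups covered the same range apart from Vehicle array 2. The difference was 0.69 (SE 0.59, interval -0.68 to 2.05, limma adjusted p = 0.641) with all arrays and 0.02 (SE 0.20, adjusted p = 0.968) without that array.

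The ratio of the ligands within an array needs no scaling between arrays. Guca2a minus Guca2b lay between -3.44 and -2.74 on the Cre control arrays, with a mean of -3.09 ± 0.27 (SD, n = 6). On the BRAFV600E arrays it was -2.07, 0.01, -1.18, -1.60, -2.81 and -1.07, a mean of -1.45 ± 0.96 (SD, n = 6). The balance was shifted towards guanylin in the mutants by 1.64, with 5 of 6 mutant arrays above every control array (exact permutation test, two-sided, p = 0.00433, adjusted p = 0.0195 over 6 ratio tests). Leaving out any single array gave 1.35 to 1.91 (adjusted exact p = 0.00649 to 0.0390), and the lowest of these was without BRAFV600E array 2. Within the shared slide the shift was 2.07, but 2 arrays against 6 allow no exact p under 0.0357 and the adjusted p was 0.107. Cre control arrays 2, 3 and 5 had a spike-in slope of 0.759 to 0.843, under the 0.9 that the other arrays with a recorded slope exceeded (16 arrays have one, and the 4 of the second slide have none). Without them the shift was 1.47 (adjusted exact p = 0.129).

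In the inhibitor experiment the same ratio was -0.97, -0.98, -2.07 and -1.60 on the MEKi arrays and 0.12, -1.47, 0.03 and 0.14 on the Vehicle arrays. All Vehicle arrays but array 2 lay above every MEKi array. The difference was -1.11 (exact permutation test, two-sided, p = 0.0857, adjusted p = 0.129), where 4 arrays against 4 allow no p under 0.0286. Without Vehicle array 2 it was -1.50 (adjusted exact p = 0.0571). The sign was opposite to that of the first comparison, and the 2 comparisons share no array.

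**Figure D2:**
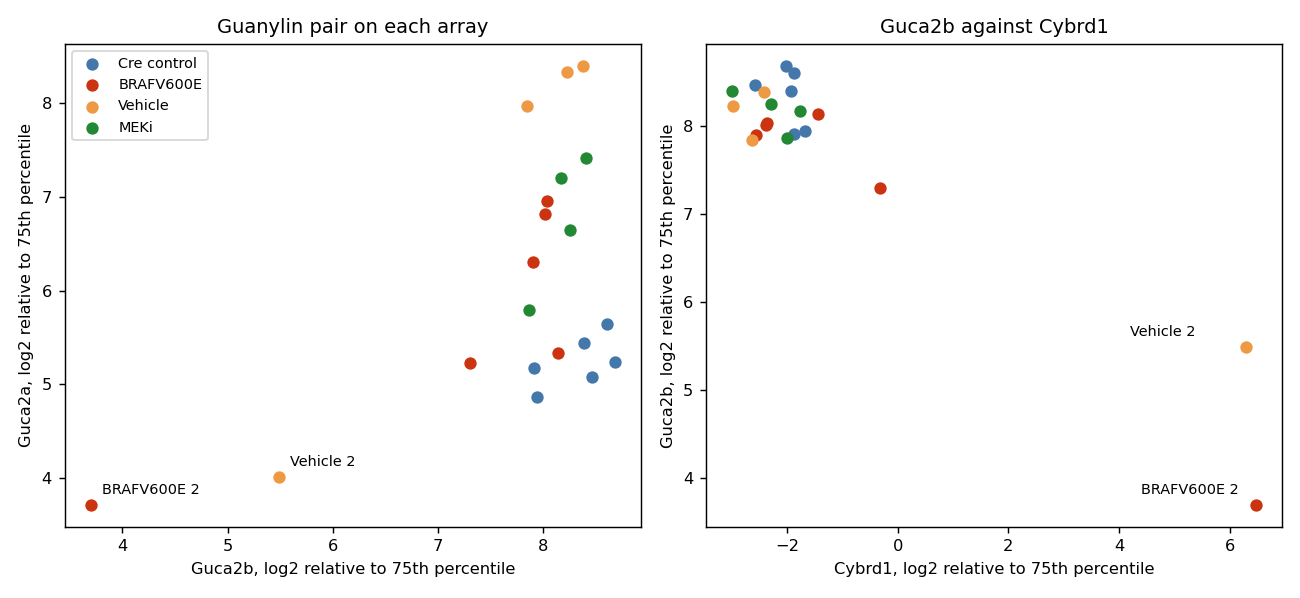
Left, Guca2a against Guca2b on each of the 20 arrays. Right, Guca2b against the duodenal gene Cybrd1. All axes are log2 relative to the 75th percentile of the array, colours mark the groups, and the labelled BRAFV600E array 2 and Vehicle array 2 are the arrays with the lowest Guca2b (3.70 and 5.49) and with Cybrd1 above 6.

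Across the 20 arrays, after the mean of each group was subtracted, Guca2a and Guca2b varied together (Pearson r = 0.83, a description, as all points share their array's scaling). Over the 18 arrays without those that stood apart, r was lower, at 0.56. The genes most like guanylin on this measure, out of 15394 that were above background on every array, were Gm3219 (r = 0.975), Naaladl1 (0.974) and Slc5a4b (0.970), with r from 0.883 to 0.906 over the 18 arrays. Those most like uroguanylin were Cfap44 (0.983), Slc5a11 (0.982) and Pdzk1 (0.979), with r of 0.918, 0.817 and 0.756 over the 18.

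The receptor, guanylate cyclase C (Gucy2c), varied little. Its median was 1.61 in Cre control (1.28 to 2.09) and 1.73 in BRAFV600E (1.48 to 2.30), a difference of 0.13 (SE 0.18, interval -0.26 to 0.52, limma adjusted p = 0.665). MEKi arrays were at 2.08, 2.40, 2.52 and 2.27 and Vehicle arrays at 2.47, 2.16, 2.08 and 2.51, a difference of 0.01 (SE 0.16, interval -0.35 to 0.37, adjusted p = 0.977). BRAFV600E array 2 and Vehicle array 2, at 1.48 and 2.16, lay within the range of the other arrays of both comparisons for the receptor, which was not so for its ligands. Within the shared slide the first difference was -0.09. The genes most like Gucy2c were Pum2 (r = 0.934), Ppip5k1 (0.889) and Ugcg (0.878).

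CFTR, the chloride channel that the pathway opens, had a median of 3.20 in Cre control (3.02 to 3.75) and 3.52 in BRAFV600E (3.31 to 3.69) by its brightest probe. The ranges overlapped and the difference was 0.25 (SE 0.15, interval -0.07 to 0.56, limma adjusted p = 0.273). The MEKi arrays were at 3.80, 3.07, 4.14 and 3.77 and the Vehicle arrays at 3.54, 3.62, 3.29 and 3.24, a difference of 0.27 (SE 0.23, adjusted p = 0.630). A dimmer Cftr probe gave -0.27 (adjusted p = 0.651) and 0.72 (adjusted p = 0.425) when every probe was tested on its own, and -0.38 and 0.54 without the arrays that stood apart. The third Cftr probe was well above background on 3 Cre control arrays and on no other array, so it was not tested.

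NHE3 (Slc9a3), the sodium-proton exchanger that the pathway restrains, came nearest to the threshold in both experiments. By its brightest probe (mm9 chr13:74306830-74306889) the Cre control arrays had a median of 3.33 (2.78 to 4.58) and the BRAFV600E arrays one of 2.50 (1.20 to 3.47). The mutants were lower by their mean, with 4 of the 6 under every control. The difference was -1.0 (SE 0.38, interval -1.82 to -0.18, limma adjusted p = 0.0977), -0.76 without BRAFV600E array 2 (adjusted p = 0.173) and -1.69 within the shared slide, where the groups did not overlap (adjusted p = 0.102). In 1 fit of all 4 groups, which shares the estimate of the spread, the same difference of -1.0 passed (adjusted p = 0.0434).

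The second Slc9a3 probe (mm9 chr13:74300566-74301172) lay 6.26 kb away and gave a larger difference. Its median was -2.83 in Cre control (-3.77 to -1.99) and -4.17 in BRAFV600E (-6.04 to -3.26). When each of 38173 probes was tested on its own, of which 9.4% were called in either direction, this probe was called lower at -1.60 (SE 0.43, limma adjusted p = 0.0374), whereas the brighter one was not (adjusted p = 0.111). Without BRAFV600E array 2 the difference of the second probe was -1.29 and the call was lost (adjusted p = 0.0569). With slide as a block it was -2.26 (adjusted p = 0.0457). Within the shared slide it was also -2.26, but not called (limma adjusted p = 0.0803). Both settings rest on mutant arrays 1 and 2.

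With the MEK inhibitor, Slc9a3 stood at 2.36, 2.94, 3.12 and 2.36, and with vehicle at 1.46, 1.63, 1.48 and 2.09. Every MEKi array was above every Vehicle array. The difference was 1.03 (SE 0.23, interval 0.50 to 1.56, limma adjusted p = 0.0710), about as large as the first and of opposite sign, and it was 1.02 without Vehicle array 2 (adjusted p = 0.106). It stayed between 0.89 and 1.17 when any 1 array was left out (adjusted p = 0.0794 to 0.177), and with array weights it was called higher at 0.92 (adjusted p = 0.0407). The second probe gave 0.84 (adjusted p = 0.367), but it was well above background on 1 of 4 Vehicle arrays only.

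The ratio of Slc9a3 to Cftr RNA, by the brightest probe of each, was 0.15 ± 0.40 (SD, n = 6) in Cre control and -1.10 ± 0.78 (SD, n = 6) in BRAFV600E on the log2 scale. Transport itself was not measured. The mutant arrays were at -1.05, -2.24, -0.84, -0.88, 0.04 and -1.64, and the controls between -0.24 and 0.83. The balance of these signals was shifted away from Slc9a3 by 1.25, with 5 of 6 mutants under every control (log2 difference -1.25, exact permutation test, two-sided, p = 0.00649, adjusted p = 0.0195). It held without any single array, at -1.48 to -1.02 (adjusted exact p = 0.00649 to 0.0455). It was -1.79 within the shared slide and -1.42 without the 3 controls of low spike-in slope, where the adjusted exact p was 0.107 and 0.129. In the inhibitor experiment the difference was 0.76 (exact permutation p = 0.0857, adjusted p = 0.129).

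**Figure D3:**
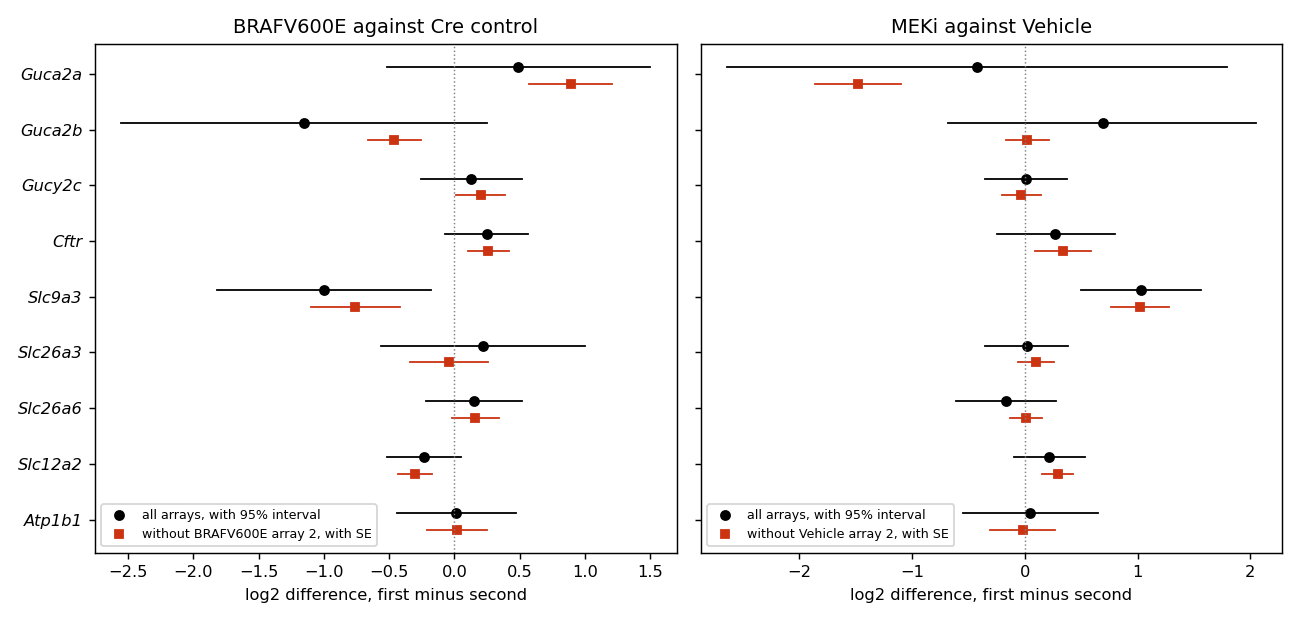
Log2 difference between groups for the 9 genes, each by its brightest probe, left BRAFV600E minus Cre control and right MEKi minus Vehicle. Black points with lines are all arrays with the 95% interval, and red squares with lines are the values with SE after BRAFV600E array 2 (left) or Vehicle array 2 (right) was left out. Guca2b moves from -1.15 to -0.46 and from 0.69 to 0.02, Guca2a from 0.49 to 0.89 and from -0.42 to -1.48, and Slc9a3 keeps 1.03 and 1.02 on the right.

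The apical anion exchangers were next. DRA (Slc26a3) had a median of 2.19 in Cre control (0.86 to 2.53) and 1.97 in BRAFV600E (1.65 to 3.59). The lowest control was array 1 and the highest mutant array 2. The difference of the means was 0.22 (SE 0.36, interval -0.56 to 1.00, limma adjusted p = 0.726), -0.04 without that mutant array and 0.62 within the shared slide. MEKi arrays were at 2.48, 3.04, 2.75 and 2.69 and Vehicle arrays at 2.55, 2.97, 2.62 and 2.76, which are nearly the same values, with a difference of 0.02 (SE 0.16, interval -0.35 to 0.38, adjusted p = 0.971). Its dimmer probes gave 0.09 and 1.01 in the first comparison (adjusted p = 0.909 and 0.203) and 0.22 and 0.14 in the second, none of them called. Without BRAFV600E array 2 the first values were -0.18 and 0.69.

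PAT-1 (Slc26a6) gave answers that differed between its probes, all listed under the same transcript. The brightest (mm9 chr9:108815312-108815371) had a median of 6.74 in Cre control (6.26 to 7.09) and 6.91 in BRAFV600E (6.48 to 7.17), a difference of 0.15 (SE 0.17, interval -0.22 to 0.52, limma adjusted p = 0.597). The others lie 51.7 kb and 54.1 kb from it and 2.46 kb from each other. No annotation of mm9 was used here to place them against exons, so whether the brightest probe, which gives the gene-level values, the ratio and the correlations of Slc26a6, reads this gene's transcript was not tested. At chr9:108763641-108763700 the controls had a median of 2.26 (1.69 to 2.55) and the mutants one of 2.97 (2.63 to 3.77), so that every mutant was above every control. That probe was called higher, at 0.85 (SE 0.20, interval 0.41 to 1.29, adjusted p = 0.0229 in the fit over all probes). At chr9:108761182-108761241 the medians were 0.57 and 1.34 and the difference was 0.83 (SE 0.23, interval 0.34 to 1.33, adjusted p = 0.0400).

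Both of these probes had BRAFV600E array 2 as their highest mutant array. Without it the first was still called, at 0.70 (SE 0.17, limma adjusted p = 0.0326), and the other was not, at 0.65 (adjusted p = 0.0540). With slide as a block they were at 1.12 and 1.20 (adjusted p = 0.0391 and 0.0418). Within the shared slide they were at the same values and not called (limma adjusted p = 0.112 and 0.12). Both settings rest on mutant arrays 1 and 2. Without the 3 controls of low spike-in slope they were at 0.69 and 0.67 (adjusted p = 0.198 and 0.281). The mean over the Slc26a6 probes was called higher too, at 0.61 (adjusted p = 0.0238). In all, 3 of 15 member probes tested were called in the first comparison, 2 of Slc26a6 and 1 of Slc9a3.

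In the inhibitor experiment the probe at chr9:108763641-108763700 read 2.76, 3.26, 3.09 and 2.83 on MEKi arrays and 3.34, 4.18, 3.01 and 3.41 on Vehicle arrays. The difference of -0.50 (SE 0.26) did not pass (limma adjusted p = 0.461), nor did that of -0.46 (SE 0.27) at the neighbouring probe (adjusted p = 0.540) or that of -0.17 at the brightest one (SE 0.20, adjusted p = 0.749). Without Vehicle array 2 they were -0.27, -0.34 and 0.01. None of 15 member probes was called in that comparison, where 0.93% of 39125 probes were. The ratio of Slc26a3 to Slc26a6 by their brightest probes differed by 0.07 between mutants and controls and by 0.18 between MEKi and Vehicle (exact permutation p = 0.872 and 0.400).

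**Figure D4:**
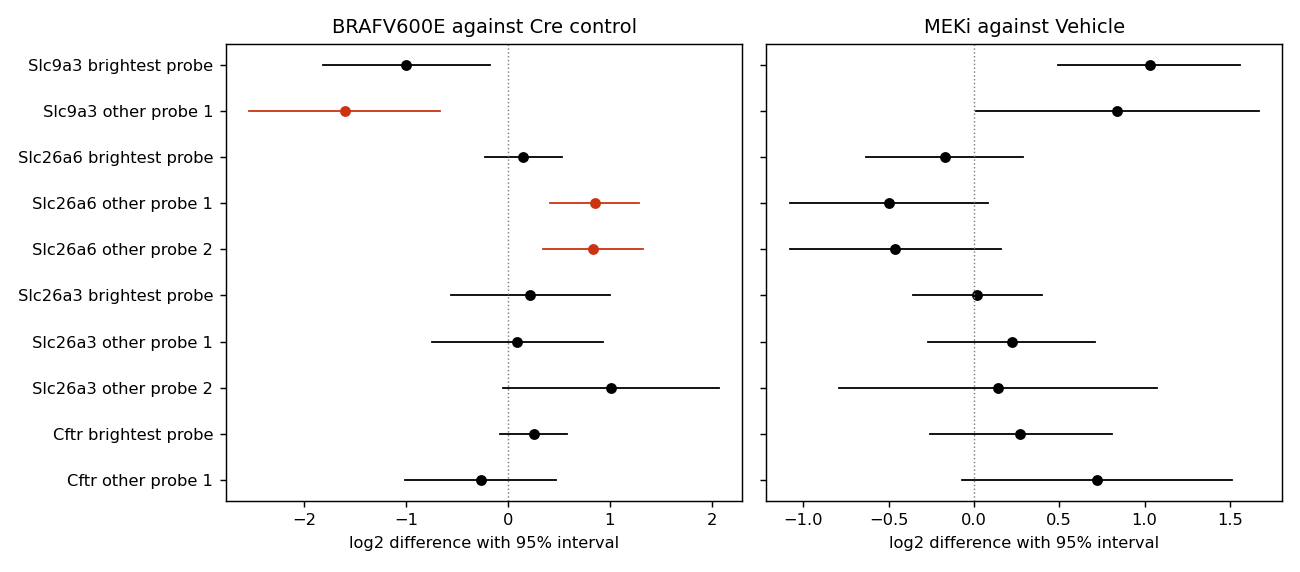
Log2 difference with 95% interval for each tested probe of Slc9a3, Slc26a6, Slc26a3 and Cftr, left BRAFV600E minus Cre control and right MEKi minus Vehicle. Red marks an adjusted p under 0.05 over all probes. In the left panel the second Slc9a3 probe (-1.60) and the dimmer Slc26a6 probes (0.85 and 0.83) are red, and the right panel has none.

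The basolateral members came last. NKCC1 (Slc12a2) stood between 3.01 and 3.19 on all Cre control arrays (median 3.10) and between 2.54 and 3.20 on the BRAFV600E arrays (median 2.83), a difference of -0.23 (SE 0.13, interval -0.52 to 0.05, limma adjusted p = 0.247). The SD was 0.06 in the controls and 0.26 in the mutants. MEKi arrays were at 3.00, 2.78, 2.92 and 2.82 and Vehicle arrays at 2.45, 2.89, 2.55 and 2.78, a difference of 0.21 (SE 0.14, adjusted p = 0.504). Within the shared slide the first difference was -0.04. The sodium pump subunit Atp1b1 had medians of 5.69 (5.08 to 6.28) and 5.77 (5.38 to 5.96), a difference of 0.01 (SE 0.21, interval -0.44 to 0.47, adjusted p = 0.976), and of 5.70 in MEKi and 5.64 in Vehicle, a difference of 0.05 (SE 0.26, adjusted p = 0.953).

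Among the transporters, the closest genes by the same measure of joint variation were Duoxa2, Znfx1 and Prkg2 for Slc9a3 (r = 0.834, 0.796 and 0.790), Ppt1, Hars and Abi3 for Cftr (0.848, 0.835 and 0.830) and Aen, Atrnl1 and Sdc1 for Slc26a3 (0.853, 0.826 and 0.814). For Slc26a6 they were Fuom, Ppp1r11 and Lrrc61 (0.898, 0.894 and 0.889), for Slc12a2 Fxyd3, Gm8675 and Ccdc187 (0.753, 0.727 and 0.726), and for Atp1b1 Rbm47, Rprd1b and Lgals8 (0.910, 0.906 and 0.892). These are values over 20 arrays. Over the 18 arrays r was 0.525 to 0.689 for the genes of Slc12a2 and 0.663 to 0.864 for those of Slc26a3. It was 0.724 or more for the genes of the other transporters. The closest genes over the 18 arrays were partly others. No member was among the 3 genes closest to another member. Over the 20 arrays Guca2b and Slc26a6 had an r of -0.07, and over the 18 arrays one of 0.77.

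Y-linked RNA was not evenly spread over the groups of either comparison. Eif2s3y was well above background on 3 of 6 Cre control and 4 of 6 BRAFV600E arrays, and on 4 of 4 MEKi and 2 of 4 Vehicle arrays. For BRAFV600E this differs from the equal number of males and females given by the study's methods. Ddx3y and Uty had the same counts as Eif2s3y, whereas Kdm5d was well above background on every array of each group. The mean of these 4 Y-linked genes thus holds a gene that did not follow the others. With that mean as a covariate, the MEKi difference was -1.58 for Guca2a, -0.12 for Guca2b and 1.22 for Slc9a3 (limma adjusted p = 0.632, 0.971 and 0.132). Braf itself differed by 0.42 between BRAFV600E and Cre control (adjusted p = 0.171), and the labels do not say that its probe tells the alleles apart. Of the enterocyte markers, the mean of 10 genes was 5.13 on BRAFV600E array 2 and 6.46 to 7.05 on the other mutants, and 6.14 on Vehicle array 2 and 6.86 to 7.14 on the other Vehicle arrays. The markers did not move as 1 on these arrays. Lct was at -2.23 and 3.70 and Anpep at 3.65 and 4.23, below the other 18 arrays (5.49 to 8.30 and 6.74 to 8.91), whereas Alpi was at 7.23 and 7.84, above the 3.77 to 6.16 of the rest. On Vehicle array 2 Vil1, Fabp1, Fabp2, Apoa4 and Sis lay within the range of the other 18. Crypt lists moved with the genotype. The mean level of 6 Paneth genes was 5.54 to 6.68 in Cre control and 2.99 to 4.88 in BRAFV600E, and that of 6 stem genes 0.68 to 1.15 and 0.14 to 0.56. The mean of 7 enteroendocrine genes was 2.65 to 3.08 and 1.71 to 2.22. In the inhibitor experiment the same lists were at 5.55 to 6.43, 0.92 to 1.13 and 2.27 to 2.47 in MEKi and at 3.93 to 5.72, 0.37 to 0.68 and 1.39 to 1.96 in Vehicle. The goblet, tuft, muscle and lymphoid lists overlapped between Cre control and BRAFV600E (6.69 to 7.20 and 5.95 to 6.91 for goblet, -3.81 to -2.86 and -4.40 to -3.30 for tuft, 2.78 to 3.44 and 3.01 to 3.91 for smooth muscle, 0.88 to 2.10 and 0.11 to 1.50 for T lymphoid, -0.45 to 0.08 and -1.07 to 0.43 for B lymphoid). The proximal list was at 1.62 on BRAFV600E array 2 and 3.27 on Vehicle array 2, above the 0.19 to 1.25 of the remaining arrays. The part of cell composition in the member values was not tested.

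Around the members, 9 lists with 79 further genes of the same physiology were read in the same fits. Of 72 tested in the first comparison, 6 rose and 7 fell in BRAFV600E tissue, and of 74 tested in the second, 1 rose and 3 fell in MEKi tissue. These are 8.33% and 9.72% of the genes tested, beside 6.2% and 6.31% of all genes, and 1.35% and 4.05%, beside 1.09% and 0.89%. Counts this small are given as a description. The cyclic GMP list, with the phosphodiesterases and protein kinases G that act after the receptor, had 0 of 10 called in the first comparison (median 0.02), and in the second 1 of 11 fell. That gene was the phosphodiesterase Pde10a, at -2.12 (SE 0.34, limma adjusted p = 0.0245). Its MEKi arrays lay between -5.36 and -3.71 and its Vehicle arrays between -2.92 and -2.20, without overlap.

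Of the sodium-proton exchange list, 1 of 11 rose and 2 fell in the mutants, and all were scaffold or regulator genes rather than exchangers. Pdzk1, a PDZ scaffold of brush border transporters, had a median of 5.40 in Cre control (5.15 to 5.75) and of 3.66 in BRAFV600E (-0.31 to 4.01). It fell by 2.46 (SE 0.61, limma adjusted p = 0.0229), and by 1.81 without BRAFV600E array 2 (adjusted p = 0.000827). Its levels under MEKi (4.97 to 5.75) and Vehicle (1.98 to 4.55) did not overlap either, with a difference of 1.46 that was not called (adjusted p = 0.241). Slc9a3r2, the NHERF scaffold that ties NHE3 to protein kinase G, fell by 0.56 (adjusted p = 0.0307), a call lost without array 2 (adjusted p = 0.0614). Ahcyl1, known as the IRBIT regulator of ion transporters, rose by 1.13 (adjusted p = 0.0218).

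Water channels held the largest change of any list. Aqp5, an aquaporin of secretory glands, rose by 6.14 in BRAFV600E tissue (SE 0.48, limma adjusted p = 1.94e-05, 70.5-fold). It was well above background on 6 of 6 BRAFV600E arrays (-0.98 to 0.83) and on 1 of 6 Cre control arrays (-7.17 to -4.09), so the size of the fold rests on dim control signals. It fell by 5.28 in MEKi tissue (SE 0.45, adjusted p = 0.00362), where 2 of 4 arrays were above background (-6.38 to -5.00), against 4 of 4 Vehicle arrays (-1.30 to 0.72). Without the arrays that stood apart the differences were 6.0 and -4.94. Aqp1, the water channel of vessels and lacteals, fell by 1.38 in the mutants (adjusted p = 0.00980), from a median of 4.56 (3.88 to 5.17) to one of 3.29 (2.28 to 3.81).

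Of the secretagogue receptors, 1 of 9 rose and 1 fell. Ptger4, the EP4 receptor for prostaglandin E, rose by 1.03 (SE 0.16, limma adjusted p = 0.00235), from 1.30 to 1.87 in Cre control to 2.38 to 3.06 in BRAFV600E. Sstr1, a somatostatin receptor, fell by 1.58 (SE 0.23, adjusted p = 0.00134) and rose by 0.92 under MEK inhibition (SE 0.17, adjusted p = 0.0402). These receptors showed no overlap between mutant and control arrays.

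Among sodium pump subunits, 2 of 7 fell in the mutants (median -0.47): Fxyd2 by 0.77 and Fxyd5 by 0.78 (limma adjusted p = 0.00616 and 0.0435). Both encode small regulators of the pump. Fxyd5 lost the call without BRAFV600E array 2 (adjusted p = 0.0722). The potassium channels that recycle charge for chloride secretion split, Kcnq1 falling by 0.80 (adjusted p = 0.00864) and Kcnn4 rising by 0.57 (adjusted p = 0.0486, and 0.0743 without array 2), with 7 tested.

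In the chloride and bicarbonate list 1 of 13 rose, the sodium-bicarbonate cotransporter Slc4a7, at 1.45 (SE 0.39, limma adjusted p = 0.0325). Its MEKi difference was -2.05 (adjusted p = 0.146), and -1.39 with a call without Vehicle array 2 (adjusted p = 0.0396). Slc26a2, the sulfate transporter of the same family as the exchangers above, fell by 0.62 under MEK inhibition (adjusted p = 0.0483), a call lost without that array (adjusted p = 0.0834). The nucleotide receptor P2ry2 was called lower only without it, at -1.37 (adjusted p = 0.0174). Of the kinases that act on NKCC1, 1 of 6 rose in the mutants, Oxsr1, at 0.40 (adjusted p = 0.0383, and 0.0712 without BRAFV600E array 2). Neither of the 2 sodium channel subunits tested was called in either comparison.

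Without BRAFV600E array 2, 9 genes of these lists were called in the first comparison in place of 13, and without Vehicle array 2, 5 in the second in place of 4. With slide as a block 16 were called, and 10 of the 13 were among them. The calls of Slc9a3r2, Oxsr1 and Kcnn4 were lost there (limma adjusted p = 0.0610, 0.139 and 0.236). Within the slide that holds both groups 5 were called, of which 3 (Pdzk1, Aqp1 and Ptger4) were among the 13. The others were the adenosine receptor Adora2b and the carbonic anhydrase Car4, at -3.68 and -3.29 (adjusted p = 0.00906 and 0.00193), named here after their values were seen, and Aqp5 was not tested in that setting. Without the 3 controls of low spike-in slope 4 were called, all among the 13 (Aqp5, Ptger4, Sstr1 and Kcnn4). Of the 13 called in the mutants, 12 (92.3%) had the opposite sign under MEK inhibition, near the 91.2% of all called genes tested in both (2118 of 2323), so the lists did not stand out from the rest in this respect.

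**Figure D5:**
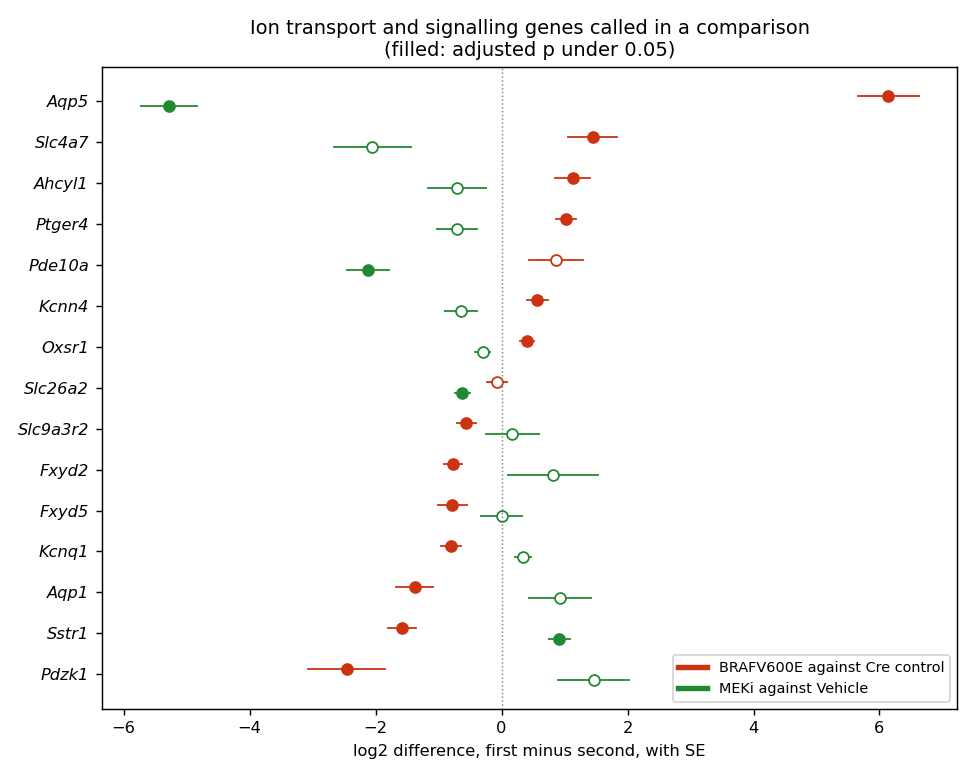
Log2 difference with SE for the genes of the 9 lists called in either comparison, BRAFV600E minus Cre control in red and MEKi minus Vehicle in green. Filled points have an adjusted p under 0.05. Aqp5 stands at 6.14 and -5.28, Pdzk1 at -2.46 and 1.46, and Fxyd5 at -0.78 and 0.00.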

How the data were processed

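RNA from 20 mice was hybridised by the authors to 1-colour Agilent SurePrint G3 mouse arrays (v2 design, 62976 spots) and read with Agilent Feature Extraction 10.5.1.1, per the submitters' processing notes. The deposited scanner files hold signal intensity per spot, already corrected for background, and 0 or 1 marks for signal well above background and for saturation (other values, not measurements of level). The series table deposited by the authors holds intensity without scaling, equal to the scanner signal within 0.497%, and served as an alternative. The probe coordinates in the files are of mm9, and no genome or annotation of that build was used here, so exons and UTRs were not assigned.

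Control spots and outlier-marked spots were left out, spots of a probe were averaged, and log2 of the processed signal minus the array's 75th percentile was taken (R 4.3.3, limma 3.58.1). Gene names came from the files' accessions, through RefSeq (34818 probes), or from the files' own symbols (9320) and older symbols (294), while 12173 probes had no name. Each gene was represented by the probe with the highest mean over 20 arrays, and was tested where 50% or more of the arrays compared had it well above background. lmFit and eBayes were fitted to each comparison's arrays alone, with Benjamini-Hochberg adjustment over all genes and calls at 0.05, and tested on simulated data. Ratios were tested by exact permutation. The labels number no replicates, and precision is limited by how many arrays a group has. The 75th percentile signal was 525 to 1518, no spot was saturated, and no arrays were identical.

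Named genes are all members with every probe, up to 4 called genes per list and comparison in order of size, the 3 genes most like each member, Braf and 4 Y-linked genes. A gene of the lists is not reported here. The members and lists were chosen with earlier results of these data known. Marker lists (13) covered enterocyte, goblet, Paneth, stem, tuft, enteroendocrine, proximal and distal small intestine, colon, smooth muscle, T and B lymphoid and exocrine pancreas genes. Alternatives were background correction by normexp with an offset of 50, quantile normalization, other percentiles, no scaling, other filters, all probes or their mean, a fit of all 4 groups, array weights, a Y-linked covariate, slide or array column as a block, and each array left out. The labels' treatment text, on atorvastatin, does not vary between samples, matches no group and was not used.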

Additional observations from a re-analysis of the deposited data

Results flagged for a closer look

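In a group of 4 to 10 arrays, an end value was picked out when its gap to the next array was a large part of the group's range (Dixon's 95% critical value), which chance does in about 1 of 20 groups. All 36 groups of the 9 genes were checked in this way. Guca2a on Vehicle array 2 was at 4.01, with the next array at 7.97 and the highest at 8.40, a gap of 0.902 of the range. Guca2b on BRAFV600E array 2 was at 3.70, with the next at 7.30, a gap of 0.812 of the range. Slc26a3 on Cre control array 1 was at 0.86, with the next at 2.09, a gap of 0.736 of the range. The first 2 lie on the arrays with high Cybrd1, and the cause was not tested.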

How the results depend on the processing

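No paired analysis was possible because the labels carry no replicate numbers. Of the 9 genes, none was called in either comparison when any 1 array was left out. Of all genes, 2365 were called between BRAFV600E and Cre control (49.6% higher), 4635 with normexp (34.2% higher), 9265 with no scaling (98.1% higher, all genes shifted by 0.79), 3587 probes with each probe on its own, 3745 with array weights, 1520 with slide as a block (30.1% higher), 745 on the shared slide (25% higher), 416 without the 3 controls of low spike-in slope and 1447 to 2884 with 1 array left out (1447 without Cre control array 3, 1512 without array 2). Between MEKi and Vehicle 380 were called, 72 with no scaling, 235 with no filter, 1216 with array weights, 53 with the Y-linked covariate, 16 with array column as a block and 83 to 371 with 1 array left out (83, 87 and 143 without MEKi arrays 1, 3 and 4, and 190, 116 and 115 without Vehicle arrays 1, 3 and 4). The cause of these differences was not tested.

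Members called in the first comparison were 0, but 4 with no scaling (Cftr 1.06, Guca2a 1.30, Gucy2c 0.94 and Slc26a6 0.96, with the shift of 0.79 in all genes), 1 with the mean over probes (Slc26a6), 2 with every probe (Slc26a6 and Slc9a3), 1 with every probe and without BRAFV600E array 2 (Slc26a6), 1 in the fit of 4 groups (Slc9a3) and 1 with slide as a block (Guca2b). In the second, 1 was called with array weights (Slc9a3). Genes called in the lists numbered 13, and 9 without BRAFV600E array 2, 16 with slide as a block, 5 on the shared slide and 4 without the 3 controls of low slope.

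Signs turned for Atp1b1 with quantile normalization (-0.24), the percentile over detected probes (-0.04) and without the 3 controls (-0.39), for Slc12a2 with no scaling (0.57), for Cftr with the mean over probes (-0.01), for Guca2a, Gucy2c and Slc26a6 with either use of slide (-0.77, -0.09 and -0.08) and for Gucy2c without the 3 controls (-0.13). In the second comparison they turned for Gucy2c and Slc26a3 with no scaling (-0.01 for each), for Gucy2c and Atp1b1 with array weights (-0.08 and -0.14) and for Guca2b with the Y-linked covariate (-0.12). With 1 array left out, the first comparison ranged over -0.11 to 0.13 for Atp1b1 and -0.04 to 0.35 for Slc26a3, and the second over -0.14 to 0.22 for Atp1b1, -0.06 to 0.09 for Gucy2c, -0.08 to 0.10 for Slc26a3 and -0.30 to 0.01 for Slc26a6.

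The ratio of Guca2a to Guca2b in the first comparison was 1.64, and no longer passed on the shared slide (2.07) or without the 3 controls of low slope (1.47). That of Slc9a3 to Cftr was -1.25, and likewise did not pass in these settings (-1.79 and -1.42), which leave fewer arrays. That of Slc26a3 to Slc26a6 was 0.07, -0.08 with normexp and -0.20 to 0.25 with 1 array left out. The settings on spike-in slope, the list counts and the ratios within a slide were chosen after seeing the data.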
